A study of Mus musculus with 7 samples.

Results

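A set of 10 genes that mature β-cells normally keep silent was followed in the islets of pregnant mice: LDHA, SLC16A1, HK1, HK2, ACOT7, IGFBP4, OAT, MAF, PDGFRA and SMAD3. They were taken by name from the deposited gene table, and all 10 were found among its 34082 gene names. Each library held the RNA of hand-picked islets of 1 C57BL/6 mouse at day 15 of pregnancy, and 7 mice were used. The 3 mice labelled Prlr were heterozygous for a deletion of the prolactin receptor in all tissues and had received no tamoxifen. The sources describe the 4 mice labelled CkoWt as carrying a conditional deletion of the receptor in pancreatic β-cells, driven by the tamoxifen-inducible Pdx1CreERTM. The series description calls the conditional mice homozygous, the methods of the study call them heterozygous, and the group name contains Wt, so the zygosity is left as the sources give it. According to the series description, both groups were mated with wild type males at 3 to 4 months of age. As the sources describe them, both groups carried a deletion of the receptor gene and no wild type mouse was among the samples. The Wt in the group name was not resolved. Tamoxifen, Cre and genotype differed together and cannot be told apart.

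Most tissues use these genes, or genes like them, as part of ordinary metabolism, growth or signalling, and β-cells are known for holding them down. Lactate dehydrogenase A and the lactate carrier encoded by SLC16A1 would let a cell make lactate from pyruvate and take up lactate and pyruvate from blood, so that exercise could trigger insulin release. The low-Km hexokinases HK1 and HK2 phosphorylate glucose even when it is scarce, which would let a β-cell respond to low glucose. The comparison asked whether the level of these genes differed between islets in which the receptor deletion was global and islets in which it was aimed at β-cells.

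Of the 10 genes, 6 were abundant enough for the test across all genes, and none of the 6 passed it. Of the 10 genes, 4 (ACOT7, HK1, IGFBP4 and LDHA) were lower in each of the 3 Prlr mice than in any of the 4 CkoWt mice, as were 3.11% of all genes tested. Levels are TPM, a share of all transcripts corrected for transcript length, divided by a size factor for each mouse (scaled TPM). The correction for length lets different genes be set side by side. The plot of levels by mouse shows all 10 genes.

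**Figure D1:**
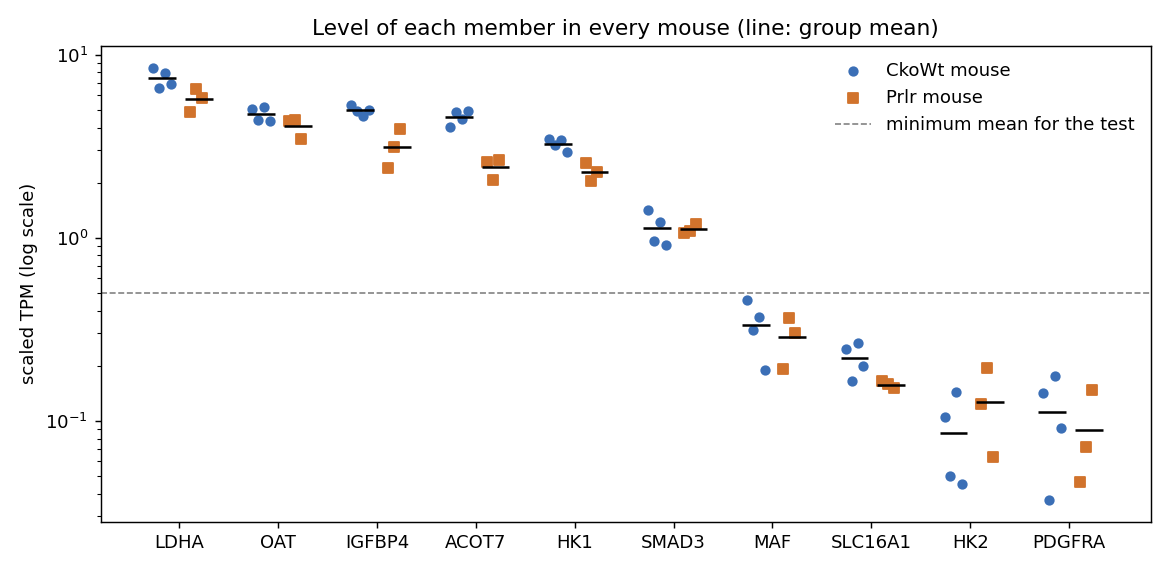
Scaled TPM of each of the 10 genes (log axis) in the 4 CkoWt mice (circles) and the 3 Prlr mice (squares), with a line at each group mean; the dashed line marks the mean TPM of 0.5 that a gene needed to be tested. LDHA, at a mean of 6.74, was the highest, 4 genes lay under the line, and the groups stand apart for ACOT7, HK1, IGFBP4 and LDHA.

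All 10 genes were under 10 scaled TPM in every mouse. By mean level over the 7 mice the order was LDHA (6.74), OAT (4.46), IGFBP4 (4.19), ACOT7 (3.65), HK1 (2.84), SMAD3 (1.12), MAF (0.312), SLC16A1 (0.193), HK2 (0.103) and PDGFRA (0.102). LDHA stood at the 71.9th percentile of the 27935 genes detected in any mouse and PDGFRA at the 32.0th. In the CkoWt mice the ranges of OAT (4.37 to 5.18), IGFBP4 (4.63 to 5.29) and ACOT7 (4.01 to 4.94) overlapped one another, so their order is not settled. IGFBP4 had the higher mean there (4.97 against 4.75 for OAT). In the Prlr mice the ranges of ACOT7 (2.07 to 2.65) and HK1 (2.05 to 2.56) overlapped too. Over all 7 mice the ranges of HK2 and PDGFRA overlapped, as did those of MAF and SLC16A1, though the latter pair did not in the Prlr mice. A mean TPM under 0.5 kept a gene out of the test, which left 6 of the 10 genes. SLC16A1, HK2, MAF and PDGFRA fell under it, and their values are given without that test.

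The islets were mostly β-cell RNA, with the insulin genes taking 46.1% to 58.9% of all TPM. The targeted gene does not separate the groups, since PRLR was at 38.4 to 55.6 scaled TPM in the CkoWt mice and 35.05 to 51.1 in the Prlr mice and the values cover all its transcripts. ESR1, whose sequence is part of the CreERTM transgene, was at 57.5 to 90.7 in the CkoWt mice and 0.190 to 0.275 in the Prlr mice. RNA of other cells differed between mice: the summed acinar enzyme markers varied 8.76-fold from the lowest to the highest mouse, both CkoWt.

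ACOT7 encodes an acyl-CoA thioesterase that cleaves long-chain acyl-CoA and is abundant in neurons. Its level was 4.01, 4.85, 4.45 and 4.94 scaled TPM in CkoWt mice 1 to 4. In Prlr mice 1 to 3 it was 2.60, 2.07 and 2.65. The highest Prlr mouse was therefore well under the lowest CkoWt mouse, and the mean was 4.56 ± 0.422 (SD, n = 4) against 2.44 ± 0.322 (SD, n = 3), a ratio of 0.534. The log2 fold change, Prlr minus CkoWt on log2(scaled TPM + 1), was -0.70 ± 0.0955 (SE), with an adjusted p of 0.0933 from limma over all genes tested. It came closest to the threshold of the tested genes of the set, and its adjusted p was 0.0811 to 0.363 over the other settings. ACOT7 stands in the gene list that the study drew from these same mice, so its direction is not independent of that list.

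HK1, the low-Km hexokinase of most tissues, was at 3.45, 3.20, 3.42 and 2.93 scaled TPM in the CkoWt mice. The Prlr mice had 2.56, 2.05 and 2.28. The groups did not overlap, and the ratio of the means was 0.706. The log2 fold change was -0.37 ± 0.0832 (SE), and limma gave an adjusted p of 0.543. HK1 is also in the gene list drawn from these mice, so the study's test called it lower where limma here did not.

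IGFBP4, a secreted protein that binds insulin-like growth factors, was at 5.29, 4.93, 4.63 and 5.02 scaled TPM in the CkoWt mice. It was at 2.41, 3.11 and 3.93 in the Prlr mice, so that all 3 lay below the CkoWt mice but differed more among themselves. The log2 fold change was -0.54 ± 0.124 (SE), and limma gave an adjusted p of 0.543. Without Prlr mouse 1, the lowest, the log2 fold change was -0.40.

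LDHA, which turns pyruvate into lactate, was at 8.51, 6.61, 7.94 and 6.96 scaled TPM in the CkoWt mice and 4.84, 6.50 and 5.80 in the Prlr mice. The groups came close without overlapping, since the highest Prlr mouse was at 6.50 and the lowest CkoWt mouse at 6.61. The log2 fold change was -0.34 ± 0.114 (SE), with an adjusted p of 0.962 from limma. LDHA had an unadjusted p of 0.0185, and over the other settings that p ran from 0.00490 to 0.0716.

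OAT, the mitochondrial ornithine aminotransferase, was at 5.08, 4.38, 5.18 and 4.37 scaled TPM in the CkoWt mice and 4.36, 4.41 and 3.47 in the Prlr mice. The groups overlapped, and Prlr mouse 3 lay lowest. In the values as deposited they did not overlap, with 4.39 in the highest Prlr mouse and 4.66 in the lowest CkoWt mouse. The log2 fold change was -0.18, with a 95% interval of -0.41 to 0.05, and -0.09 without Prlr mouse 3. SMAD3, which carries TGF-β signals to the nucleus, was at 1.42, 0.964, 1.22 and 0.916 in the CkoWt mice and 1.06, 1.10 and 1.18 in the Prlr mice. All 3 Prlr mice lay inside the CkoWt range. Its log2 fold change was -0.01, with a 95% interval of -0.25 to 0.24, and its sign turned when CkoWt mouse 1, CkoWt mouse 3 or Prlr mouse 1 was left out.

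**Figure D2:**
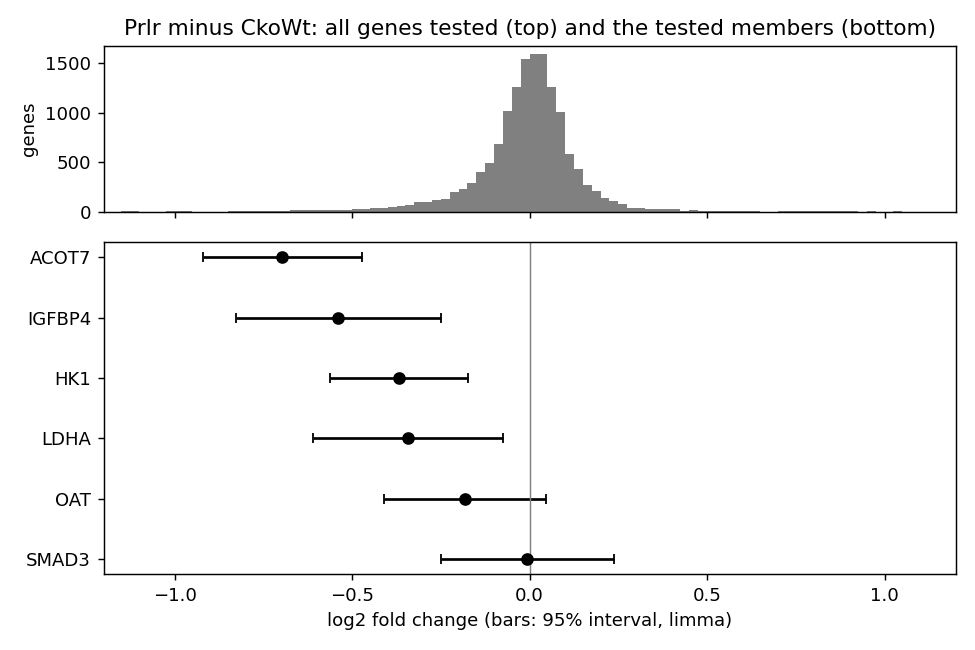
Log2 fold change, Prlr minus CkoWt, of all 14840 genes tested (top, number of genes; 1.2 log2 units either side are shown) and of the 6 tested silenced genes (bottom, points with 95% intervals from limma). The intervals of ACOT7, IGFBP4, HK1 and LDHA lie below 0 and those of OAT and SMAD3 cross it; the intervals are not adjusted for the number of genes.

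Over all genes, 10 of 14840 passed an adjusted p of 0.05, a background of 0.0674%, of which 9 were lower and 1 higher in the Prlr mice. Of the 6 tested silenced genes 0 passed. With an unadjusted p under 0.05, 4 of the 6 (ACOT7, HK1, IGFBP4 and LDHA) were lower, against 2.94% of all genes in that direction and 4.52% in either. The same 4 did not overlap and were lower, where 3.11% of all genes did so. All 6 had a log2 fold change below 0, as did 48.3% of all genes, and their median was -0.36, where that of all genes was 0.00. Since the genes were chosen with earlier results of these mice known, these shares describe the set and test nothing.

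The 4 genes under the minimum had values too low for more than a description. SLC16A1, the monocarboxylate carrier, was at 0.248, 0.164, 0.267 and 0.199 scaled TPM in the CkoWt mice and 0.165, 0.158 and 0.151 in the Prlr mice. The groups overlapped by a small margin, since the highest Prlr mouse was at 0.165 and the lowest CkoWt mouse at 0.164, and the unadjusted two-sided exact permutation p was 0.0857. As deposited they did not overlap (0.158 against 0.175). HK2, the second low-Km hexokinase, was the one gene of the set with a higher mean in the Prlr mice, 0.127 against 0.0859, with the groups overlapping (exact p = 0.429). MAF, a transcription factor of the large MAF group, was at 0.189 to 0.458 in the CkoWt mice and 0.193 to 0.363 in the Prlr mice. PDGFRA, the α receptor for platelet-derived growth factor, was at 0.0369 to 0.175 and 0.0462 to 0.148. Neither gene separated the groups, with exact p-values of 0.514 and 0.629. The smallest p this exact test can give is 0.0286.

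Several silenced genes are 1 of a family of related genes, and the plot by family sets them side by side. LDHB, the partner of LDHA, was 1.54 to 2.98 times the level of LDHA. The share of LDHA in the sum of LDHA and LDHB was 34.6% ± 3.51 (SD, n = 4) in the CkoWt mice and 27.5% ± 4.13 (SD, n = 3) in the Prlr mice. The shares overlapped at their edges, with 31.4% in the lowest CkoWt mouse and 32.3% in the highest Prlr mouse. SLC16A1 was 14.5% to 21.7% of the sum of SLC16A1, SLC16A3 and SLC16A7, which also carry lactate; SLC16A8 was not counted here. All 3 of these carriers were below 1 scaled TPM in every mouse.

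**Figure D3:**
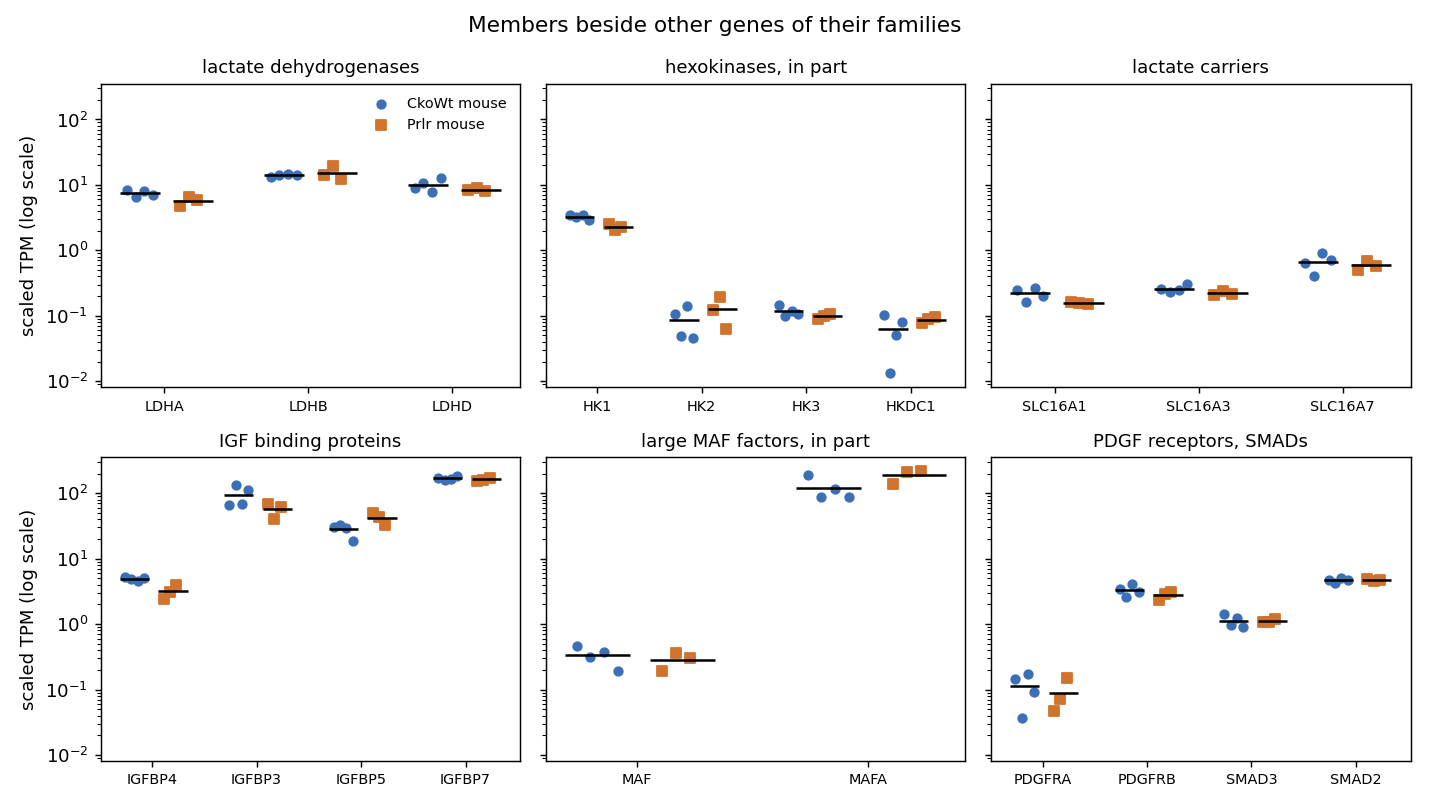
Scaled TPM (log axis) of the silenced genes beside other genes of their families in the CkoWt mice (circles) and Prlr mice (squares), with lines at the group means. LDHB lies 1.54 to 2.98 times above LDHA, MAFA 276 to 724 times above MAF and IGFBP7 31.8 to 65.0 times above IGFBP4.

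MAFA, the β-cell member of the large MAF factors and an activator of the insulin genes, was 276 to 724 times the level of MAF. The mean ratio was 364 in the CkoWt mice and 674 in the Prlr mice (unadjusted exact p = 0.0286). Several such ratios were looked at, with no adjustment. MAF was under the minimum for the test, at 0.189 to 0.458 in the CkoWt mice and 0.193 to 0.363 in the Prlr mice. The ratio therefore rests on low values, and MAF alone did not separate the groups (exact p = 0.514). MAFA itself was at 119 ± 47.6 (SD, n = 4) in the CkoWt mice and 189 ± 42.8 (SD, n = 3) in the Prlr mice, with overlapping groups (adjusted p = 0.9999, limma). PDGFRB, the other receptor for platelet-derived growth factor, was 21.0 to 71.3 times the level of PDGFRA, which was also under the minimum.

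IGFBP4 was a small part of the IGF binding proteins, at 1.92%, 1.499%, 1.71% and 1.59% of their sum in the CkoWt mice. It was 0.870%, 1.27% and 1.45% in the Prlr mice, all below the CkoWt mice. IGFBP7, the most abundant, was at 169 ± 10.1 (SD, n = 4) and 163 ± 9.52 (SD, n = 3). IGFBP3 was at 94.99 ± 32.9 (SD, n = 4) and 56.4 ± 13.8 (SD, n = 3), and IGFBP5 at 28.0 ± 6.50 (SD, n = 4) and 41.9 ± 9.02 (SD, n = 3), both with overlapping groups. IGF2, the growth factor that these proteins bind, was at 3.72 ± 0.492 (SD, n = 4) and 2.19 ± 0.609 (SD, n = 3), and the groups did not overlap (adjusted p = 0.694, limma). ACOT7 was 6.19% ± 0.857 (SD, n = 4) of the acyl-CoA thioesterases in the CkoWt mice and 3.12% ± 0.234 (SD, n = 3) in the Prlr mice. ACOT13, the most abundant, was at 41.7 ± 4.74 (SD, n = 4) and 47.3 ± 4.72 (SD, n = 3).

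No other gene of these families passed the threshold. Of all genes tested, 48.3% had a log2 fold change below 0 and 2.94% were lower with an unadjusted p under 0.05 (limma). Of 16 tested genes of lactate and pyruvate handling, 11 had a log2 fold change above 0, with a median of 0.05 (1 with an unadjusted p under 0.05, SLC16A11 at -0.20). BSG, the chaperone of the lactate carriers, was the most abundant at 325 ± 14.8 (SD, n = 4) and 336 ± 49.1 (SD, n = 3). Of 6 tested genes of ornithine and proline, 0 were below 0 and the median was 0.11. Of 13 tested genes of the TGF-β and SMAD pathway around SMAD3, 11 were below 0, with a median of -0.10. TGFBR2, the type II receptor, was the 1 of these with an unadjusted p under 0.05 (log2 fold change -0.28, adjusted p = 0.918, limma). SMAD2, the closest relative of SMAD3, was at 4.72 ± 0.316 (SD, n = 4) and 4.70 ± 0.170 (SD, n = 3). Of 5 tested PDGF genes 3 were below 0.

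Other genes counted as silenced in β-cells were listed as well. Of 19 listed and 17 tested, 0 passed the threshold, 15 were below 0 and 4 had an unadjusted p under 0.05, all lower in the Prlr mice, against 48.3% of all genes below 0 and 2.94% lower with such a p. Their median log2 fold change was -0.14. NDRG2, TGM2, FCGRT, CD302 and KLHL5 were lower without overlap between the groups, as were 3.11% of all genes. NDRG2 was at 3.16 ± 0.513 (SD, n = 4) and 2.08 ± 0.380 (SD, n = 3), and the crosslinking enzyme TGM2 at 2.98 ± 0.472 (SD, n = 4) and 1.95 ± 0.0796 (SD, n = 3). FCGRT, the neonatal Fc receptor, was at 3.85 ± 0.266 (SD, n = 4) and 2.88 ± 0.259 (SD, n = 3). TGM2 is in the gene list the study drew from these mice, as lower, though it did not pass the threshold here.

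None of the genes known for holding others silent passed the test. Of 15 tested DNA methyltransferases, Polycomb subunits, β-cell transcription factors and kinases, 0 passed, 8 were below 0 and the median was -0.01. Among all genes, 48.3% were below 0. The methyltransferase DNMT3A was at 12.1 ± 1.96 (SD, n = 4) and 12.8 ± 0.776 (SD, n = 3). RFX6 was at 40.5 ± 5.55 (SD, n = 4) and 32.7 ± 6.35 (SD, n = 3), with overlapping groups. PRKAA2, a catalytic subunit of AMP-activated kinase, had the smallest p of the list, with 2.56 ± 0.131 (SD, n = 4) and 2.18 ± 0.115 (SD, n = 3) and groups that did not overlap (adjusted p = 0.9999, limma).

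The reads of a gene can fall on several transcripts, and the estimate for 1 transcript is less certain than that of the gene. ACOT7 had 4 annotated transcripts. The most abundant was at 2.79 ± 0.256 (SD, n = 4) in the CkoWt mice and 1.29 ± 0.618 (SD, n = 3) in the Prlr mice. It carried 70.4% of the difference in means, and the other 3 together were also lower in every Prlr mouse, at 1.78 ± 0.322 (SD, n = 4) against 1.15 ± 0.297 (SD, n = 3). Both comparisons reached the smallest exact p of 0.0286. HK1 rested on 1 predicted transcript, which held 61.0% to 83.5% of its TPM and was at 2.50 ± 0.317 (SD, n = 4) and 1.61 ± 0.431 (SD, n = 3), with overlapping groups (exact p = 0.0571). The other 7 together overlapped as well, at 0.752 ± 0.148 (SD, n = 4) and 0.684 ± 0.188 (SD, n = 3). LDHA came from 1 of its 3 transcripts, with 98.5% to 100% of the TPM, and IGFBP4, OAT, MAF and SLC16A1 had 1 transcript each.

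For LDHA, IGFBP4, OAT and SLC16A1, the transcript that carried nearly all the TPM starts near the gene start of a promoter window. The bases before the start are shown for LDHA and IGFBP4 only. They come from the RefSeq annotation of GRCm38.p6, both on the plus strand, at chr7:46845554-46845803 for Ldha and chr11:99040994-99041243 for Igfbp4. Each line holds the 250 bases before the gene start, read 5′ to 3′. Capitals mark matches on either strand to ACGTG, the core of the site for hypoxia-inducible factors, and to GGGCGG, the GC box. CCAAT was searched too.
Ldha: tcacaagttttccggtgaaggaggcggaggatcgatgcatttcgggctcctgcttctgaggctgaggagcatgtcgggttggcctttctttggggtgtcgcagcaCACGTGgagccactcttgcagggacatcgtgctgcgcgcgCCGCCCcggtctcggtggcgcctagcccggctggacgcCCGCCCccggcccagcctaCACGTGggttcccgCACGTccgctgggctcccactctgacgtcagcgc
Igfbp4: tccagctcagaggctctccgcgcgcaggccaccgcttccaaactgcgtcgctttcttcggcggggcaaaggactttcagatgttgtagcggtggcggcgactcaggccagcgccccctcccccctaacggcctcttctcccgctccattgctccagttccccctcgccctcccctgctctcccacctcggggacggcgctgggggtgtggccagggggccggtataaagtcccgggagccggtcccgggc

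The Ldha window held 5 matches to ACGTG, of which 2 pairs overlap because CACGTG reads the same on both strands, and 2 matches to GGGCGG. The letters of the 3 motifs were not in the Igfbp4 window. ACGTG was found in 16.6%, GGGCGG in 32.7% and CCAAT in 33.8% of 32851 windows of the same length. Of the 11 windows found for 9 of the 10 genes, 3 held ACGTG (in Ldha, Slc16a1 and Hk2), 5 GGGCGG and 2 CCAAT. The genes of the hypoxia response were counted 1 by 1: of 15 tested, 0 passed, 6 were below 0 and the median log2 fold change was 0.02. Among all genes, 48.3% were below 0. HIF1A itself was at 27.2 ± 1.97 (SD, n = 4) and 26.2 ± 1.38 (SD, n = 3). The most abundant transcript of ACOT7 starts 14202 bases from the start in the promoter table, so no window is shown for it.

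Islets hold other cells that use these genes, and markers of several such cells also had lower values in the Prlr mice. In bulk RNA, fewer cells of a type and less RNA per cell cannot be told apart. Of 15 tested neuron markers 13 were below 0, where 48.3% of all genes were, with a median of -0.41. The threshold was passed by 2 of them, against 0.0674% of all genes: STMN2 at -0.81 (adjusted p = 0.0173, limma) and PRPH at -0.76 (adjusted p = 0.0243, limma). Both of these are in the gene list drawn from these mice, as are several others of the markers. ELAVL4, another of the 15 neuron markers, was higher without overlap, by 0.27 on the log2 scale (adjusted p = 0.807, limma). The summed level of the 18 neuron markers was 323 to 496 scaled TPM in the CkoWt mice and 270 to 338 in the Prlr mice. STMN2 gave only 7.36 to 8.51 and 3.91 to 4.29 of these sums, which rest mostly on other markers. Which cells that RNA came from was not tested. All 12 endothelial markers were below 0, with a median of -0.22 and a summed level of 208 to 246 against 173 to 212. None of the neuron or endothelial markers was at 0 in every mouse.

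Stroma markers were below 0 in 11 of 12 and 1 passed, THY1 at -0.73 (adjusted p = 0.0410, limma), which is in that gene list too, with a summed level of 57.0 to 79.6 against 42.5 to 66.1. Glia markers were below 0 in 6 of 7, with a summed level of 9.91 to 14.4 against 8.54 to 10.96. α-cell markers were below 0 in 8 of 8 and δ- and PP-cell markers in 6 of 7, with 0 past the threshold. Of all genes, 48.3% were below 0. The summed δ- and PP-cell markers did not overlap, at 18213 to 21355 against 15776 to 17479 (unadjusted exact p = 0.0286). The summed α-cell markers overlapped. β-cell markers were above 0 in 13 of 15, with a median of 0.29 and 0 past the threshold. That median was 0.16 without Prlr mouse 2 and 0.14 for values as deposited. Leukocyte and duct markers had medians of 0.02 and 0.00. The acinar median was 0.09, and it ran from -0.54 without CkoWt mouse 2 to 0.48 without CkoWt mouse 3, so it has no settled direction; it was -0.29 without Prlr mouse 2.

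**Figure D4:**
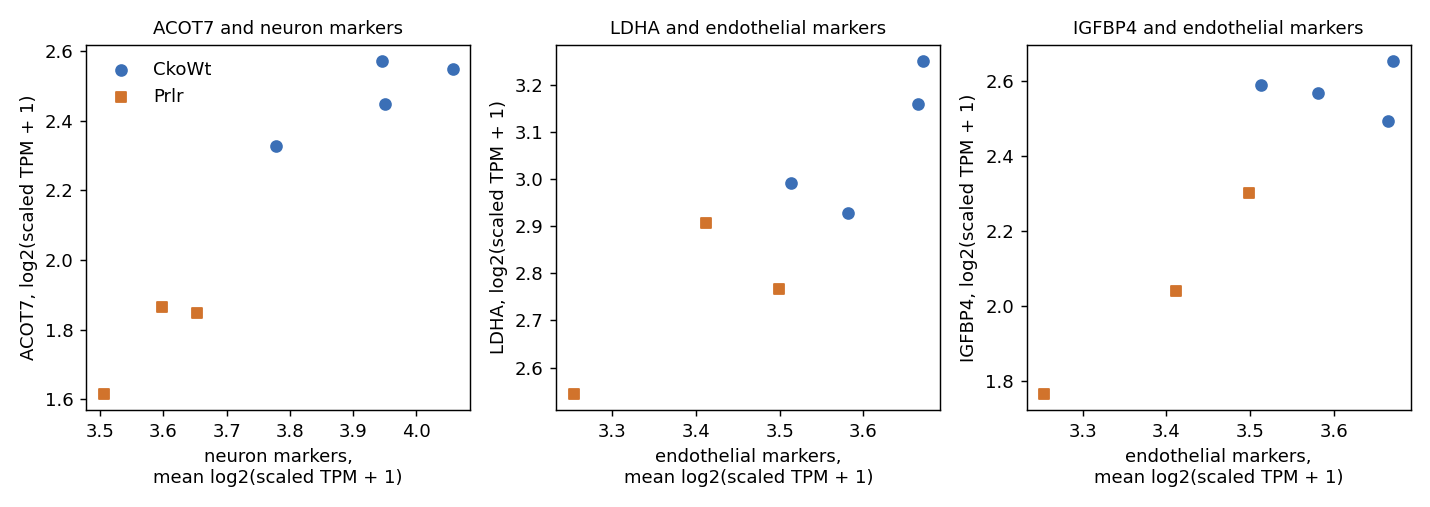
Level of ACOT7, LDHA and IGFBP4 against the mean level of the 15 tested neuron markers or the 12 endothelial markers, both as log2(scaled TPM + 1), with 1 point per mouse (circles CkoWt, squares Prlr). ACOT7 lay with the neuron markers (r = 0.96 over 7 mice) and LDHA and IGFBP4 with the endothelial markers (r = 0.91 and 0.92). The groups do not overlap on either axis in any panel, so every r holds the group difference. The margin of the endothelial markers is narrow, with 3.51 in the lowest CkoWt mouse and 3.50 in the highest Prlr mouse.

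Across the 7 mice, ACOT7 had a Pearson r of 0.96 with the mean of the neuron markers. With the group means taken out r was 0.83. ACOT7 was not tied to that list alone: with the β-cell markers its r was -0.88 over all mice and -0.93 with the group means taken out, and in the latter way it was -0.76 with the glia and -0.74 with the acinar markers. HK1 had an r of 0.83 with the neuron markers and 0.07 with the group means taken out, and its r with the δ- and PP-cell markers was 0.79 and 0.64, and with the α-cell markers 0.78 and 0.61. LDHA and IGFBP4 had r of 0.91 and 0.92 with the endothelial markers, and 0.76 and 0.75 with the group means taken out. IGFBP4 also had r of 0.71 with the neuron markers and 0.25 with the duct markers. With the group means taken out these were -0.33 and 0.71. LDHA was not tied to 1 list: over all mice its r was 0.88 with the glia and 0.85 with the stroma markers, and with the group means taken out 0.92 with the stroma, 0.86 with the β-cell and 0.85 with the acinar markers. PDGFRA had its highest r with the stroma markers (0.89, and 0.89 with the group means taken out) and OAT with the δ- and PP-cell markers (0.90 and 0.83). SLC16A1 had its highest r over all mice with the α-cell markers (0.90), but 0.82 with the group means taken out, below the 0.90 with the acinar markers. PDGFRA and SLC16A1 were under the minimum for the test, so their r rests on low values. SMAD3 had its highest r over all mice with the leukocyte markers (0.82), and with the group means taken out it was 0.82 with these and 0.86 with the β-cell markers. These values describe 7 mice that share a size factor per mouse and the group difference, and the part of other cells in the levels was not tested.

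The single genes with the most similar pattern over the 7 mice were taken from all genes tested. The group difference was left in these r values. For ACOT7 they were GNG2, SNCG and ASS1 (r of 0.98 each), of which SNCG, γ-synuclein, is a neuronal protein. SNCG and ASS1 are, like ACOT7, in the gene list drawn from these mice. For LDHA they were SGCB, CDH5 and PLEKHG1 (0.97 to 0.98), and CDH5 is the cadherin of endothelial junctions. For IGFBP4 they were SLC44A2, BRI3BP and ARRB1 (0.97 to 0.99), and for HK1 they included RASGRF2 (0.98) and PRKAA2 (0.96). SMAD3 had CES1, PPP1R1B and PTPRC (0.97 to 0.98), the last of these the pan-leukocyte antigen. PDGFRA had CP, EBF1 and SIPA1L2 (0.98 to 0.99), MAF had DUSP6, NEURL3 and TRIM47 (0.95 to 0.96) and OAT had Gm42107, Mir5119 and PTN (0.97 to 0.98). PDGFRA and MAF were under the minimum for the test, so their r rests on low values. Between 24 and 133 of the genes tested had an r over 0.9 with any 1 gene of the set, so the named genes are the top of a long list.

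Among the silenced genes themselves, ACOT7 and HK1 had the highest r (0.88), which was 0.03 with the group means taken out. ACOT7 and IGFBP4 went from 0.83 to -0.04 in the same way. MAF and SMAD3 were at 0.79, and at 0.81 with the group means taken out, and LDHA and MAF at 0.71 and 0.85. The values of MAF were under the minimum for the test. ACOT7 and LDHA were at 0.59, and at -0.85 with the group means taken out. The order was not strict, since Prlr mouse 3 had more of both genes than Prlr mouse 1.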

How the data were processed

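RNA of 7 mice was compared between 4 CkoWt and 3 Prlr mice. Per the labels, poly(A) RNA was selected and the libraries kept the strand. The authors assigned reads to mouse RefSeq transcripts with kallisto 0.42.4; no genome build is given in the sources used here. The deposited values are called FPKM, but they sum to 1000000 in each mouse and were used as TPM. They keep no depth, and no counting interval is given. The count test that had been planned was replaced by limma 3.58.1 in R 4.3.3: TPM divided by median-ratio size factors, log2 with a pseudocount of 1, genes of mean TPM at least 0.5, Benjamini-Hochberg over 14840 genes and a threshold of 0.05. The fit was tested on simulated data, and no result of that is given here. For single values an exact permutation test, two-sided, ran over the 35 splits of the mice. The rule for naming took genes that belong to the set, passed the threshold, led a list by level or p, or resembled a member most (3 genes each), and the list genes shown were picked from these; isozyme partners, non-overlapping genes, DNMT3A, RFX6, HIF1A, PRLR and ESR1 were added after their values were seen. The set and lists were chosen with earlier results of these data known. Python 3.11.15 and matplotlib 3.10.9 were used. Some genes of the lists are not reported here.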

Additional observations from a re-analysis of the deposited data

How the results depend on the processing

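No silenced gene passed an adjusted p of 0.05 under any setting run: a pseudocount of 0.1, every gene above 0, a mean of at least 5, a robust limma fit, upper-quartile scaling, no scaling, and leaving out each mouse. The log2 fold changes of ACOT7, HK1, IGFBP4, LDHA and OAT stayed below 0 in all settings that tested them. That of SMAD3 ran from -0.055 to 0.058 when a mouse was left out. Genes past the threshold numbered 10, and 6 under upper-quartile scaling, 18 with a pseudocount of 0.1, 4 with every gene above 0, 6 with a mean of at least 5, and 2 (without CkoWt mouse 4) to 12 (without CkoWt mouse 3) when a mouse was left out. With a mean of at least 5, LDHA was the 1 silenced gene left, and 1 of 1 had an unadjusted p under 0.05. Silenced genes lower without overlap numbered 4, and 6 in the values as deposited (OAT and SLC16A1 joined) and 4 or 5 when a mouse was left out. The share of all genes lower without overlap, 3.11%, is given for the main setting only. The counts under the other settings have no such share beside them. The medians of the lactate and pyruvate, silencing, hypoxia, MAF, acyl-CoA thioesterase, leukocyte, acinar and duct lists changed sign in at least 1 fit without a mouse. As deposited, the median of all genes was -0.12, and the ranges above include that shift. The medians of the gene lists moved by more than their spread in 27 comparisons, 12 of them for values as deposited; the cause was not tested. A count test was not run because the deposited values hold no counts. No paired analysis was possible because the groups share no mouse numbers.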
